A study of Mus musculus with 73 samples.

Results

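The genes described here are 10 members of the Nrf2 antioxidant pathway, out of 39438 gene symbols counted in RNA of 73 mouse mammary tumours. They are the regulators Nfe2l2 (which encodes Nrf2) and Keap1, and the 8 antioxidant genes Gpx2, Srxn1, Txnrd1, Slc7a11, Gclc, Gclm, Hmox1 and Nqo1. They were picked by symbol and were chosen by a measured value: Gpx2 had no counts in the sarcomatoid tumours, and the question was whether the other 9 genes followed it. The Gpx2 level in sarcomatoid tumours is therefore a description here and was given no test.

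The tumours fall into 8 groups by genotype and histology. Those with the Brca1 variant p.L1363P, whose genotype label is KB1(L1363P)P, were 9 sarcomatoid tumours, 9 carcinosarcomas (tumours with an epithelial and a sarcomatous component) and 3 adenocarcinomas. The adenocarcinomas of the other Brca models were 10 titled KB1PM and 11 titled KB1P, which share the genotype label KB1P, and 23 titled KB2P. The KP model gave 3 carcinosarcomas and 5 adenocarcinomas. In these established models Cre recombinase driven by the keratin 14 promoter deletes Trp53 in epithelium, alone (KP) or with Brca1 (KB1P) or Brca2 (KB2P), so loss of p53 is common to all of them and KP is the Brca-proficient comparison. The labels give no age, do not spell out the alleles, do not explain the letter M of KB1PM, and do not say that each tumour came from its own animal. L1363P carcinosarcomas 54.1 and 54.2 share the first part of their number, and whether they came from the same animal is not stated. They entered the fits as separate tumours. The p-values below therefore measure the spread between these tumours only.

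Nrf2 is a transcription factor that pairs with small Maf proteins on antioxidant response elements. In unstressed cells Keap1 holds it and hands it to a Cul3 ubiquitin ligase for degradation, and oxidants or electrophiles that modify Keap1 let it accumulate, so the pathway is set largely at the level of Nrf2 protein and not of its transcript. Its targets reduce peroxides (Gpx2), repair oxidised peroxiredoxins (Srxn1), reduce thioredoxin (Txnrd1), import cystine (Slc7a11), make glutathione (Gclc and Gclm), break down haem (Hmox1) and reduce quinones (Nqo1). In the mammary gland and in carcinomas Gpx2 is an epithelial selenoprotein, while Hmox1 is also strongly expressed by macrophages.

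Because these genes are grouped by a shared regulator, their promoters were searched for the core of the antioxidant response element, TGACNNNGC, on both strands, in RefSeq windows of 300 bases on build GRCm38.p6 (250 before to 50 after each start). Of the 10 genes, 8 had a window (10 windows in all, 3 of them for Txnrd1), and 4 genes held 1 core each: Nfe2l2, Srxn1, Gclm and Txnrd1. Across all 32851 windows of 27025 genes, 12.4% held the core on either strand. The 3 cores upstream of a start follow, 5′ to 3′ on the strand of the gene, with the core in capitals. The Nfe2l2 core starts at base −240 on the gene's own strand (chr2:75704879-75704913, minus strand). The Gclm core starts at base −134 and reads on the opposite strand (chr3:122245407-122245447, plus strand), as does the Txnrd1 core at base −92 (chr10:82859098-82859138, plus strand).
Nfe2l2: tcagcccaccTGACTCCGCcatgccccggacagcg
Gclm: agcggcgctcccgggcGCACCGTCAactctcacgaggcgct
Txnrd1: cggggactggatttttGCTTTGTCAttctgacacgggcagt
The Srxn1 core lies 29 bases after the start. Gpx2, Slc7a11, Nqo1 and Keap1 had no match, which says only that these letters are not in these windows. A match is a description of the sequence and not a binding site.

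Gene positions are those of the GENCODE M21 annotation on GRCm38, and all 10 genes are protein coding. Gpx2 (ENSMUSG00000042808) lies at chr12:76792333-76795554 and Srxn1 (ENSMUSG00000032802) at chr2:152105516-152111376. Slc7a11 (ENSMUSG00000027737) spans chr3:49892526-50443614, Hmox1 (ENSMUSG00000005413) chr8:75093621-75100589 and Txnrd1 (ENSMUSG00000020250) chr10:82833951-82897712. The other positions are chr2:75675513-75704641 for Nfe2l2 (ENSMUSG00000015839), chr9:21229730-21239361 for Keap1 (ENSMUSG00000003308), chr9:77754535-77794485 for Gclc (ENSMUSG00000032350), chr3:122245557-122270732 for Gclm (ENSMUSG00000028124) and chr8:107388225-107403206 for Nqo1 (ENSMUSG00000003849). Levels are CPM, the counts of a gene relative to the library's total after edgeR's TMM scaling over the 73 libraries.

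Each tumour had 1 library, with 7325180 to 31615237 counts. Run 5625 held the 29 libraries of L1363P and KP tumours, and no KB1P, KB1PM or KB2P library. The labelled share of epithelial tumour was 0% in the sarcomatoid tumours and 100% in the L1363P and KP adenocarcinomas. The summed level of 15 epithelial marker genes (Epcam, Cdh1, keratins, claudins and others) had a median of 195.7 CPM in sarcomatoid tumours, 3940 CPM in L1363P carcinosarcomas and 4061 CPM in L1363P adenocarcinomas. Of the tumours of run 5625 with a label other than sarcomatoid, 3 stood with the sarcomatoid ones. L1363P carcinosarcomas 17 and 4, labelled 5% and 2% epithelial, had epithelial sums of 147.9 and 346.6 CPM. KP adenocarcinoma 90.01A had 263.3 CPM although it is labelled 100% epithelial. Comparisons within run 5625 are given with and without these 3 tumours where that changes a call.

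Gpx2, the epithelial glutathione peroxidase, had 0 counts in 9 of 9 sarcomatoid tumours. It also had 0 counts in L1363P carcinosarcomas 17 and 4, in KP adenocarcinoma 90.01A and in KB2P adenocarcinoma 30, 13 tumours in all, and each of these 4 had a low epithelial marker sum, which was 195.3 CPM in KB2P 30, the lowest of the 23 KB2P tumours. Values just above 0 were not confined to low sums. Gpx2 was 0.2833 CPM in KP 39 (epithelial sum 3267 CPM) and 0.2103 CPM in KB2P 3 (1539 CPM), but also 0.3046 CPM in KB1PM 8 (410.4 CPM). In the other 7 L1363P carcinosarcomas Gpx2 lay between 0.4998 CPM in tumour 18 (40% epithelial) and 19.1 CPM in tumour 54.1 (90% epithelial). The L1363P adenocarcinomas had 18.7, 44.5 and 55.6 CPM. In the bulk RNA of the tumours with 0 counts, fewer epithelial cells and less Gpx2 RNA per epithelial cell cannot be told apart. Carcinosarcomas 53 and 21.1 had epithelial sums of 5965 and 4650 CPM, within the 2846 to 8928 CPM of the L1363P adenocarcinomas. Their Gpx2 was 2.01 and 3.13 CPM, whereas tumour 54.1, with a sum of 4404 CPM, reached the adenocarcinoma range. The part of epithelial content in these differences was not tested.

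The count of 0 in the sarcomatoid tumours sets a floor of 0.02495 CPM, taken as 3 counts over the group. Against that floor, the mean was at least 1588-fold lower in sarcomatoid tumours than in L1363P adenocarcinomas, at least 139-fold lower than in L1363P carcinosarcomas and at least 528-fold lower than in KB2P adenocarcinomas. Tumour 54.1 holds 61.3% of the summed Gpx2 level of the L1363P carcinosarcomas, and without it the bound against them is 60.5-fold. The floor covers counting error only, since sequencing reads without molecular identifiers are not independent molecules. Gpx2-ps1, a processed copy of the gene, had at most 3 counts in any library. Outside the sarcomatoid group Gpx2 was also uneven: the 5 KP adenocarcinomas had 0, 0.2833, 2.63, 26.6 and 111 CPM, and the KB2P adenocarcinomas ran from 0 through a median of 6.00 to 65.6 CPM. Both groups thus held tumours with and without Gpx2 RNA.

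**Figure D1:**
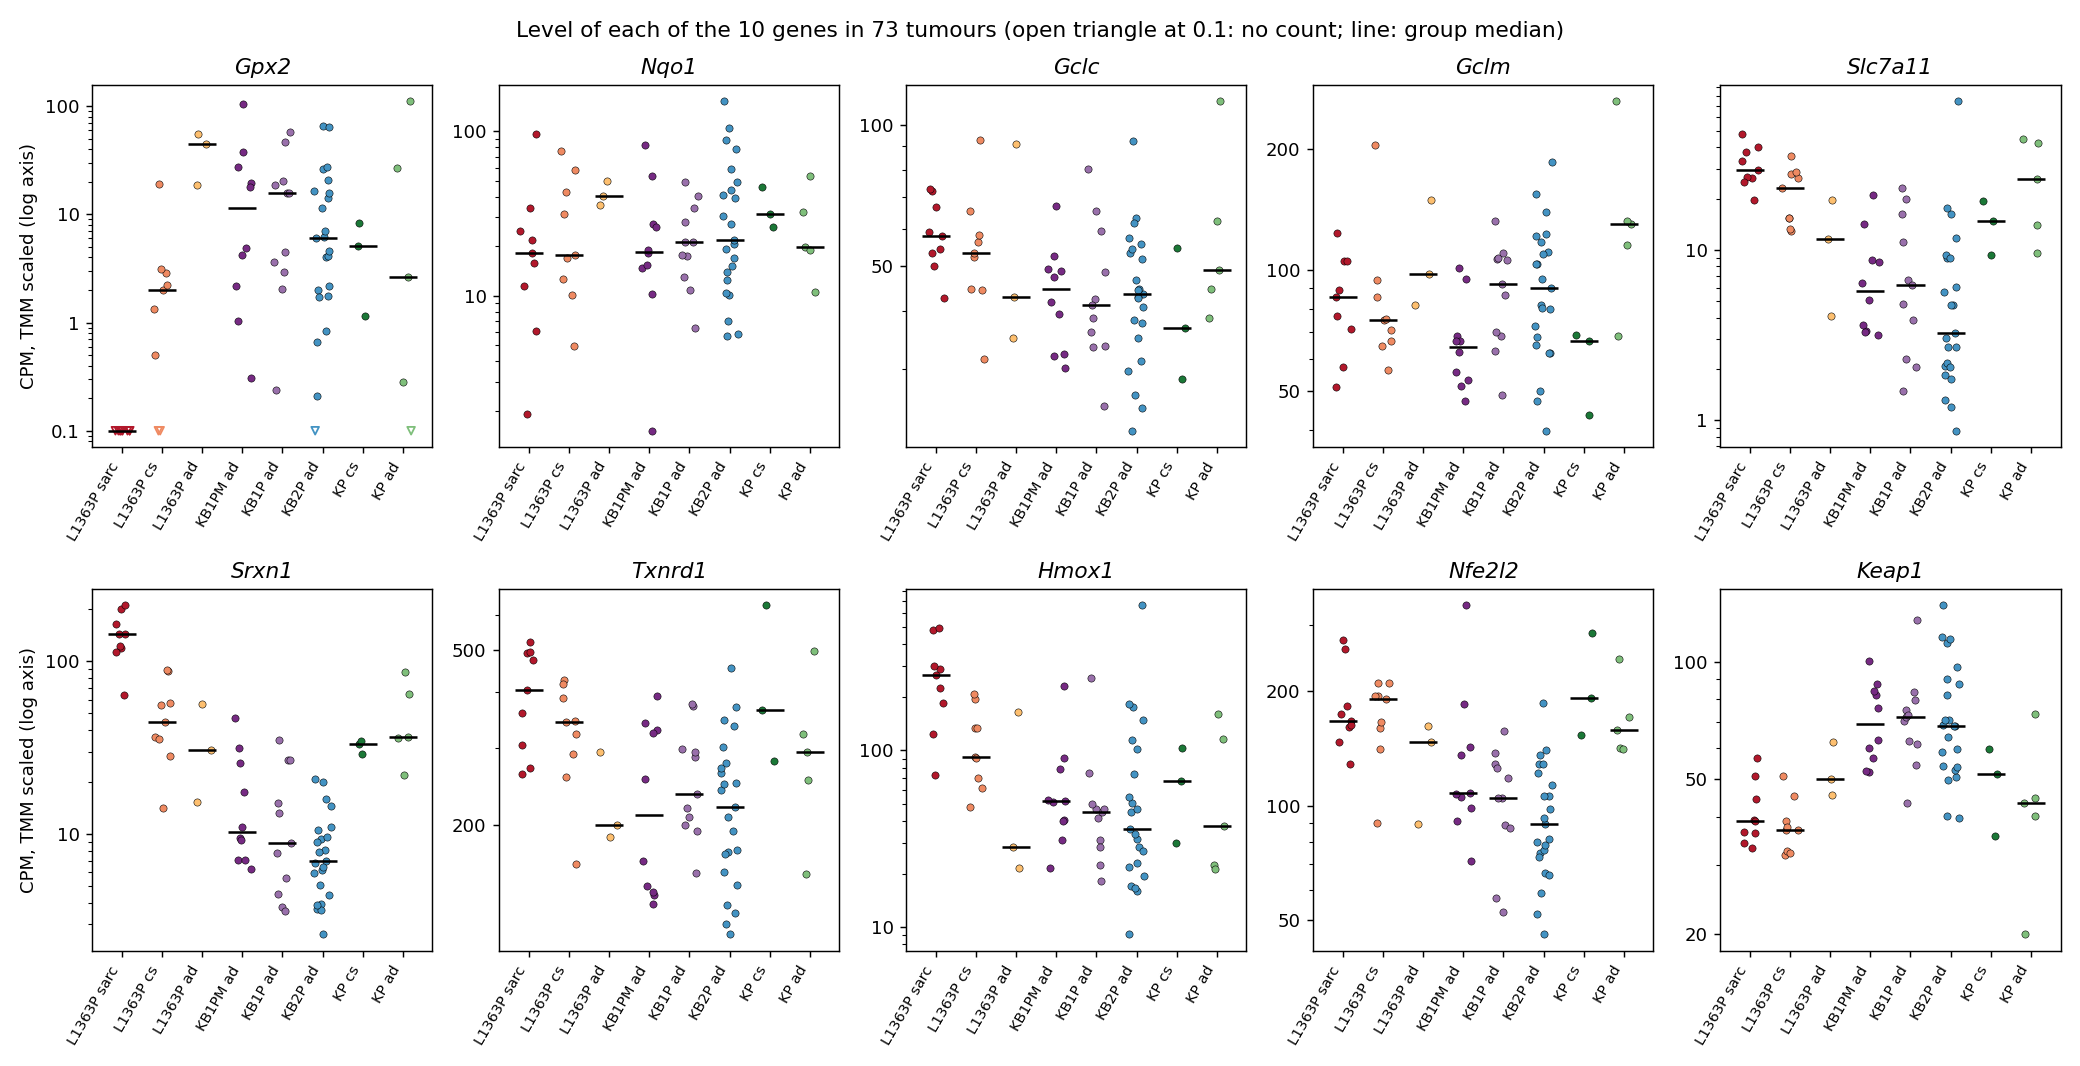
Levels of the 10 genes in each of the 73 tumours, in CPM on a log axis, by group (sarc, sarcomatoid; cs, carcinosarcoma; ad, adenocarcinoma). Each point is a tumour, the line is the group's median and an open triangle marks a tumour with no count. Gpx2 has triangles for all 9 sarcomatoid tumours, while the other 9 genes have counts in every tumour.

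None of the other 9 genes followed Gpx2 to 0 counts in the sarcomatoid tumours. Against L1363P adenocarcinomas none of the 9 was called lower, and 4 were called higher: Srxn1, Slc7a11, Txnrd1 and Hmox1. With 3 adenocarcinomas a lower level can go uncalled. Nqo1 lay below all 3 in 8 of 9 sarcomatoid tumours (log2 fold change −0.71, SE 0.72), and Keap1 in 7 of 9 (−0.35, SE 0.24). Of all 16147 genes tested in this comparison 30.6% passed, 12.1% as higher and 18.5% as lower, so 4 of 9 is to be read against a contrast in which many genes differ. The median log2 fold change was 0.47 over the 9 genes and −0.09 over all genes tested. Folds, standard errors (SE) and adjusted p-values are from edgeR's quasi-likelihood test with Benjamini-Hochberg adjustment over all genes tested, here and below.

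Srxn1, the sulfiredoxin that reactivates overoxidised peroxiredoxins, showed the clearest difference. Its level was 63.5 CPM in the lowest, 143 CPM in the median and 211 CPM in the highest of the 9 sarcomatoid tumours, against 15.3, 30.6 and 56.5 CPM in the 3 L1363P adenocarcinomas. Every sarcomatoid tumour lay above every adenocarcinoma. The fitted log2 fold change was 2.06 (SE 0.50, edgeR adjusted p = 0.00353). It held in all 9 alternative analyses of this comparison, with log2 fold changes of 1.70 to 2.64 and adjusted p of 6.6e-05 to 0.0409. Among these is the fit without carcinosarcomas 17 and 4 and KP 90.01A, which removes no tumour of the groups compared and so does not check this call.

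Slc7a11, the cystine carrier of the system that feeds glutathione synthesis, ran from 19.6 through 29.6 to 47.6 CPM (lowest, median, highest) in sarcomatoid tumours, against 4.08, 11.6 and 19.5 CPM in L1363P adenocarcinomas. Here too all 9 sarcomatoid tumours lay above the 3 adenocarcinomas, though the lowest of them by less than 1 CPM. In the fit Slc7a11 rose by 1.43 on the log2 scale (SE 0.46, edgeR adjusted p = 0.0194). It was 1.41 without adenocarcinoma 7.2 (adjusted p = 0.0675), 1.02 without 26.2 (adjusted p = 0.146) and 2.02 without 52 (adjusted p = 0.00944).

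Txnrd1, the cytosolic thioredoxin reductase, had 261, 406 and 519.9 CPM (lowest, median, highest) in sarcomatoid tumours, against 187.8, 200.1 and 292.6 CPM in L1363P adenocarcinomas. Hmox1, the inducible haem oxygenase, had 72.2, 266 and 492 CPM in sarcomatoid tumours, against 21.6, 28.5 and 165.5 CPM in L1363P adenocarcinomas. For both genes 7 of 9 sarcomatoid tumours lay above all 3 adenocarcinomas, and in both it was adenocarcinoma 52 that overlapped them. On the log2 scale the change was 0.80 for Txnrd1 (SE 0.31, edgeR adjusted p = 0.0472) and 1.91 for Hmox1 (SE 0.72, edgeR adjusted p = 0.0438). Both calls were lost without adenocarcinoma 7.2 (Txnrd1 0.67, adjusted p = 0.183; Hmox1 1.46, adjusted p = 0.186) and without adenocarcinoma 26.2 (Txnrd1 0.71, adjusted p = 0.182; Hmox1 1.51, adjusted p = 0.203). Without adenocarcinoma 52 the Hmox1 change was 3.44 (adjusted p = 0.00591) and that of Txnrd1 1.04 (adjusted p = 0.0397). None of the 3 tumours that stood apart belongs to either group compared here. Leaving them out alters only the variance and scaling shared in the fit, so it does not check these calls. All 4 passed in that fit, with an edgeR adjusted p of 0.031 at most.

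The regulators and the remaining antioxidant genes did not pass. Nfe2l2 had 128, 167 and 274 CPM (lowest, median, highest) in sarcomatoid tumours and 89.5, 147.5 and 162 CPM in L1363P adenocarcinomas (log2 fold change 0.47, SE 0.26, edgeR adjusted p = 0.166). Keap1 had 33.2, 39.1 and 56.5 CPM in sarcomatoid tumours and 45.6, 49.9 and 62.1 CPM in L1363P adenocarcinomas (−0.35, SE 0.24, edgeR adjusted p = 0.264). For Keap1 7 of 9 sarcomatoid tumours lay below all 3 adenocarcinomas, and for Nfe2l2 6 of 9 lay above them.

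The subunits of glutamate-cysteine ligase, the first step of glutathione synthesis, did not pass either. Gclc, the catalytic subunit, had 42.6 to 73.1 CPM in sarcomatoid tumours and 35.02 to 91.3 CPM in L1363P adenocarcinomas (log2 fold change 0.06, SE 0.31, edgeR adjusted p = 0.89). Gclm, the modifier subunit, had 51.3 to 124 CPM in sarcomatoid tumours and 81.8 to 149.5 CPM in L1363P adenocarcinomas (−0.37, SE 0.34, edgeR adjusted p = 0.421). Nqo1, the quinone reductase often read as the marker gene of Nrf2 activity, split the sarcomatoid group. Tumour 43 had 96.5 CPM, above all 3 adenocarcinomas (35.4, 40.2 and 49.5 CPM), and the other 8, at 1.92 to 34.3 CPM, lay below all 3 (log2 fold change over the 9 of −0.71, SE 0.72, edgeR adjusted p = 0.467).

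**Figure D2:**
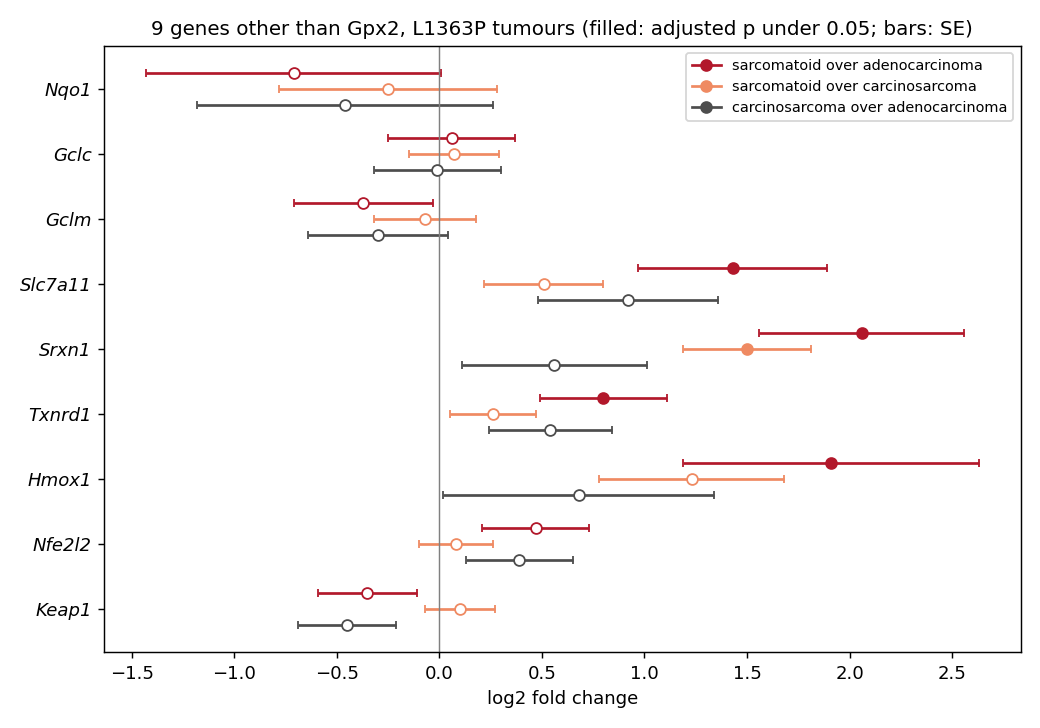
Log2 fold changes with SE of the 9 genes other than Gpx2 in 3 comparisons of L1363P histologies (sarcomatoid against adenocarcinoma, sarcomatoid against carcinosarcoma, carcinosarcoma against adenocarcinoma). Filled points passed an edgeR adjusted p of 0.05: Srxn1, Slc7a11, Txnrd1 and Hmox1 in the first comparison, Srxn1 in the second and none in the third.

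Cell type markers moved with the same contrast. Of 11 macrophage markers, 10 rose in sarcomatoid tumours against L1363P adenocarcinomas. Their summed level ran from 4034 through 5967 to 7622 CPM (lowest, median, highest) in sarcomatoid tumours, against 778.5, 1125 and 1284 CPM in L1363P adenocarcinomas, without overlap. Of 12 mesenchymal and fibroblast markers 9 rose, of 6 endothelial markers 4 rose, and of 15 epithelial markers 14 fell. None of the epithelial markers was at 0 in a sarcomatoid tumour, although their sum lay at 89.78 to 560.1 CPM there. The part of macrophages, fibroblasts and lost epithelium in the higher Hmox1, Srxn1, Slc7a11 and Txnrd1 was not tested.

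Set against L1363P carcinosarcomas, the sarcomatoid tumours differed in Srxn1 alone among the 9 genes, in a contrast where 21.5% of genes passed (7.45% as higher). Srxn1 had 63.5, 143 and 211 CPM (lowest, median, highest) in sarcomatoid tumours and 14.2, 44.3 and 89.3 CPM in carcinosarcomas, and 8 of 9 sarcomatoid tumours lay above every carcinosarcoma. The log2 fold change was 1.50 (SE 0.31, edgeR adjusted p = 0.00188), and it was 1.90 (adjusted p = 3.68e-05) without the carcinosarcomas 17 and 4 and KP 90.01A. The 2 highest carcinosarcomas in Srxn1 were those 2 tumours, at 88.3 and 89.3 CPM.

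Hmox1 stood just outside the threshold in this comparison. It had 72.2, 266 and 492 CPM (lowest, median, highest) in sarcomatoid tumours and 48.0, 92.0 and 208 CPM in carcinosarcomas, with 6 of 9 sarcomatoid tumours above every carcinosarcoma (log2 fold change 1.23, SE 0.45, edgeR adjusted p = 0.0528). Without the tumours that stood apart the log2 fold change was 1.62 and Hmox1 passed (adjusted p = 0.0089). Slc7a11 (0.51, SE 0.29), Txnrd1 (0.26, SE 0.21), Nqo1 (−0.25, SE 0.53), Keap1 (0.10, SE 0.17), Nfe2l2 (0.08, SE 0.18), Gclc (0.07, SE 0.22) and Gclm (−0.07, SE 0.25) had log2 fold changes whose edgeR adjusted p was 0.208 or more. The median over the 9 genes was 0.10, against −0.04 over all genes tested.

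Between carcinosarcomas and adenocarcinomas no difference in any of the 10 genes passed. Among L1363P tumours 2.7% of genes passed and no member did. Gpx2 had a median of 2.01 CPM in carcinosarcomas, and 8 of 9 lay below all 3 adenocarcinomas (log2 fold change −3.51, SE 1.38, edgeR adjusted p = 0.167). Slc7a11 had the largest positive one of the other genes, 0.92 (SE 0.44, edgeR adjusted p = 0.239). Among KP tumours edgeR called 0% of genes (0 of 16147, with 1926 at an unadjusted p under 0.05), whereas DESeq2 called 189 and limma 1.

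The KP carcinosarcomas had less Gclm, at 43.7, 66.5 and 68.7 CPM, than 4 of the 5 KP adenocarcinomas, which had 68.5, 115, 130.3, 132 and 262 CPM, but the fold change did not pass (log2 −1.25, SE 0.40, edgeR adjusted p = 0.337). The difference in the carcinosarcoma effect between L1363P and KP passed for 0.0124% of genes and for none of the 10. It was largest for Slc7a11 (1.84, SE 0.64, edgeR adjusted p = 0.227), whose fold change was 0.92 in L1363P and −0.92 (SE 0.47) in KP tumours. The L1363P against the KP carcinosarcomas gave 0% called (0 genes by edgeR, with 741 at an unadjusted p under 0.05, 7 by DESeq2 and 0 by limma), and adjusted p-values of 0.935 or more for all 10 genes.

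Within the 9 L1363P carcinosarcomas, whose labelled epithelial share ran from 2% to 98%, the genes moved in different directions. Per 10 percentage points more epithelium, Gpx2 rose by 0.84 on the log2 scale (SE 0.19, edgeR adjusted p = 0.028) and Srxn1 fell by 0.16 (SE 0.04, edgeR adjusted p = 0.0372), in a fit in which 8.34% of genes passed (2.59% as higher and 5.76% as lower). The Hmox1 slope was −0.13 (SE 0.04, edgeR adjusted p = 0.0852) and the other 7 genes had adjusted p of 0.346 or more. The tumours with the least epithelium, 4 and 17, had 0 CPM of Gpx2 with 89.3 and 88.3 CPM of Srxn1, while tumour 6 (95% epithelial) had 1.33 CPM of Gpx2 and 14.2 CPM of Srxn1. Despite its label, tumour 6 had an epithelial marker sum of only 631.2 CPM. The carcinosarcoma median was 3940 CPM and the highest sarcomatoid tumour had 560.1 CPM.

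Without 17 and 4 both slopes kept about their size, but with 7 tumours the calls were lost: the Srxn1 slope was −0.19 and the Gpx2 slope 0.67, both with an edgeR adjusted p of 0.873. In that fit 0 genes passed of all tested, against 1222 with the 9 tumours. Of the 11 macrophage markers 8 fell along the same slope, and their summed level was 8478 CPM in tumour 17 and 6151 CPM in tumour 4, against a median of 2012 CPM over the 9. Their part in the Srxn1 slope was not tested.

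**Figure D3:**
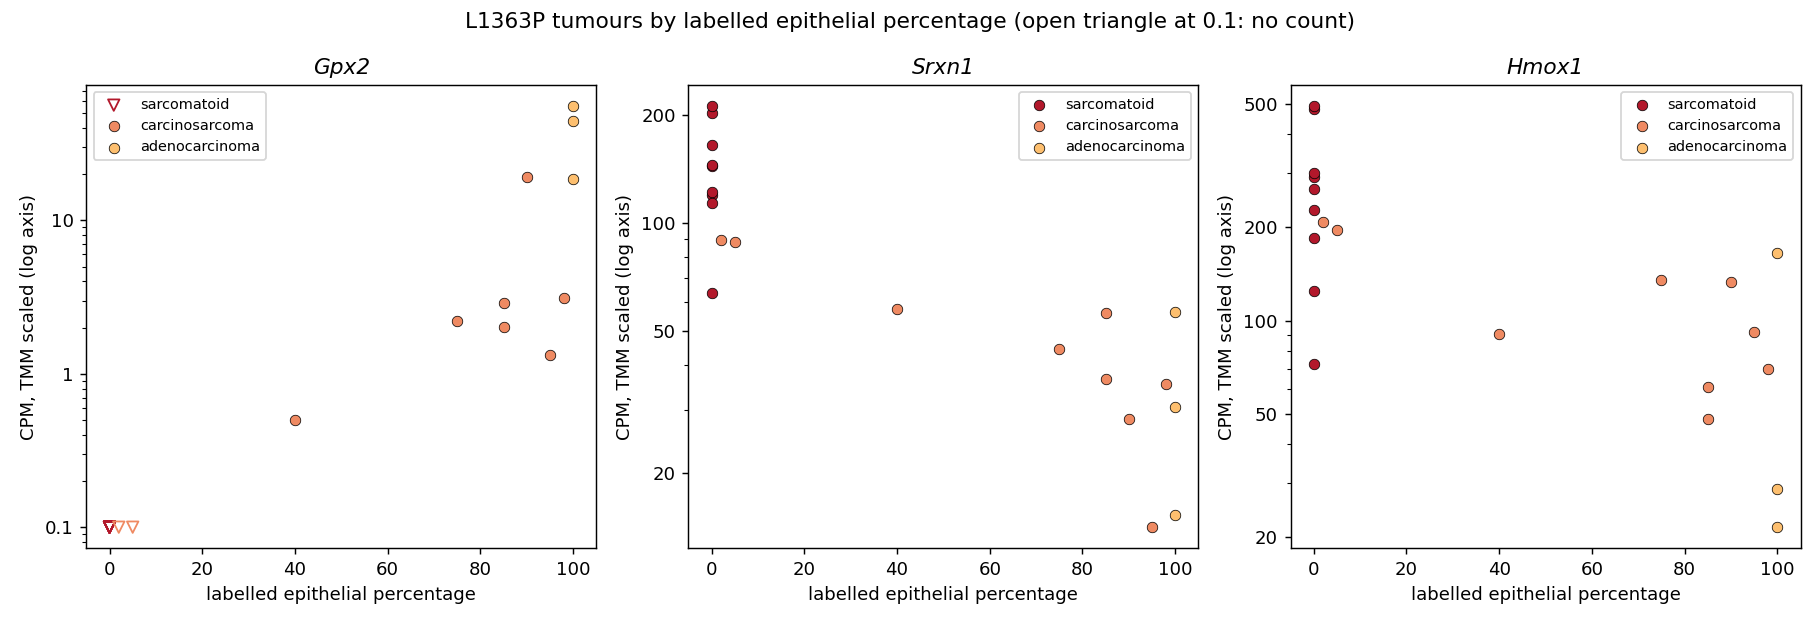
CPM of Gpx2, Srxn1 and Hmox1 against the labelled epithelial percentage in the 21 L1363P tumours, coloured by histology. Sarcomatoid tumours are at 0% and adenocarcinomas at 100%. Carcinosarcomas 17 and 4, at 5% and 2%, have no Gpx2 count, like the sarcomatoid tumours. Their Srxn1, at 88.3 and 89.3 CPM, lies above the lowest sarcomatoid tumour (63.5 CPM) and below the other 8.

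Other genes of the pathway were described from 11 lists that hold its regulators, glutathione and thioredoxin enzymes, detoxifying enzymes and related targets. In sarcomatoid against L1363P adenocarcinomas most members of each list did not pass. Over all genes tested there, 12.1% passed as higher and 18.5% as lower, and the list counts below are to be read against these shares. Of 12 Nrf2 regulators 2 rose: Bach1, a repressor that competes at the same elements (0.68, SE 0.24, edgeR adjusted p = 0.0302), and the small Maf gene Maff (1.36, SE 0.45, edgeR adjusted p = 0.0236). Of 9 genes of glutathione synthesis and recycling 3 rose and 1 fell. Gsr, glutathione reductase, changed by 0.83 (SE 0.31) and Chac1, which breaks down glutathione, by 1.75 (SE 0.59), while Ggt1, which cleaves glutathione outside the cell, changed by −4.27 (SE 1.41). The edgeR adjusted p was 0.0451 or less for these 3 genes.

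The 5 glutathione peroxidases other than Gpx2 did not share its loss. Gpx3, the secreted form, rose (1.79, SE 0.63, edgeR adjusted p = 0.0313), with 30.5, 122 and 235 CPM (lowest, median, highest) in sarcomatoid tumours against 17.6, 41.7 and 52.8 CPM in L1363P adenocarcinomas. Gpx1 (0.50, adjusted p = 0.136), Gpx4 (−0.51, adjusted p = 0.139), Gpx7 (−0.31, adjusted p = 0.762) and Gpx8 (1.77, adjusted p = 0.0784) stayed short of the threshold in that edgeR test. Against L1363P carcinosarcomas Gpx4, the lipid peroxide reductase, fell (−0.57, SE 0.19, edgeR adjusted p = 0.0369) and the other 4 did not pass.

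Among detoxifying enzymes the directions were mixed. Of 19 conjugation and quinone enzymes tested (23 listed) 3 rose and 3 fell in sarcomatoid against L1363P adenocarcinomas. With 12.1% of all genes passing as higher and 18.5% as lower, neither count stands out. The aldo-keto reductases Akr1b8 (2.33, SE 0.59, edgeR adjusted p = 0.00478) and Akr1c13 (1.82, SE 0.68, edgeR adjusted p = 0.0436) rose, as did the quinone reductase Nqo2 (1.20, SE 0.38, edgeR adjusted p = 0.0187). The microsomal glutathione transferase Mgst1 fell (−3.81, SE 0.59, edgeR adjusted p = 0.000135), with 7.29, 38.8 and 53.8 CPM in sarcomatoid tumours against 215.9, 540.2 and 660.5 CPM in L1363P adenocarcinomas. The epoxide hydrolase Ephx1 fell as well (−1.64, SE 0.58, edgeR adjusted p = 0.033).

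Of 9 further Nrf2 targets tested, Abcc1, an exporter of glutathione conjugates, rose (1.81, SE 0.42, edgeR adjusted p = 0.00258) and the growth factor gene Tgfa fell (−5.04, SE 0.90, edgeR adjusted p = 0.000351). Abcc1 had 169, 382 and 648 CPM (lowest, median, highest) in sarcomatoid tumours, against 97.9, 109 and 122 CPM in L1363P adenocarcinomas, with no overlap. Like Srxn1 it also rose against L1363P carcinosarcomas (1.51, SE 0.27, edgeR adjusted p = 0.000661) and fell with epithelial share (−0.15 per 10 percentage points, SE 0.02, edgeR adjusted p = 0.00467), a call that, like all on this slope, was lost without tumours 17 and 4. Ftl1, a ferritin chain (1.32, SE 0.30), Prdx6, a peroxiredoxin (0.94, SE 0.27), and Pgd, which makes NADPH (0.80, SE 0.26), rose against adenocarcinomas with edgeR adjusted p of 0.023 or less, each the only called gene of its list (8 haem and iron genes, 11 thioredoxin and peroxiredoxin genes tested, 6 NADPH genes). The Ftl1 value is uncertain, since near-identical copies in the genome could split its reads in the authors' counting. Catalase, Cat (−0.69, SE 0.26), and Secisbp2, which helps translate selenoproteins such as Gpx2 (−0.97, SE 0.28), fell with edgeR adjusted p of 0.0445 or less, the only called genes among 4 superoxide and peroxide enzymes and 6 selenoprotein synthesis genes. Of 7 Atf4 targets tested, the list that shares the control of Slc7a11 by amino acid shortage, Chac1 rose and Trib3 fell (−1.58, SE 0.57, edgeR adjusted p = 0.0361).

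Between genotypes, Srxn1 and Slc7a11 had the largest called differences among the adenocarcinomas, and the KB1P and KB2P tumours were the low ones. Against KP adenocarcinomas, KB2P adenocarcinomas had lower Srxn1, Slc7a11, Nfe2l2 and Gclm and higher Keap1, and KB1P adenocarcinomas (KB1P and KB1PM with equal weight) had lower Srxn1, Slc7a11 and Gclm and higher Keap1. Of 18492 genes tested, 35.3% passed in KB2P against KP (18.1% higher, 17.2% lower) and 27.3% in KB1P against KP (12.3% higher, 15% lower). The median log2 fold change over the 10 genes was −0.52 in KB2P and −0.48 in KB1P, against 0.10 and 0.06 over all genes tested. The 2 comparisons share the 5 KP adenocarcinomas, so their agreement is not independent. All KP libraries are of run 5625 and all KB1P and KB2P libraries of other runs, so genotype and run cannot be told apart.

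Srxn1 had 2.62, 6.99 and 20.9 CPM (lowest, median, highest) in KB2P adenocarcinomas and 3.60, 8.93 and 34.9 CPM in those titled KB1P. It had 6.30, 10.2 and 47.0 CPM in those titled KB1PM. The 5 KP adenocarcinomas had 22.02, 35.9, 36.6, 64.7 and 86.3 CPM. All 23 KB2P tumours, and 15 of the 21 KB1P and KB1PM tumours, lay below every KP tumour. The log2 fold change against KP was −2.52 in KB2P (SE 0.36, edgeR adjusted p = 1.12e-07) and −1.67 in KB1P (SE 0.38, edgeR adjusted p = 0.000634).

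Slc7a11 had 0.8652, 3.24 and 74.4 CPM in KB2P adenocarcinomas (lowest, median, highest), where tumour 38 alone held 38.5% of the group's sum. It had 1.48, 6.20 and 23.1 CPM in KB1P and 3.14, 5.71 and 20.9 CPM in KB1PM tumours, against 9.62, 13.99, 26.1, 42.6 and 44.6 CPM in KP tumours. Below all KP tumours lay 19 of 23 KB2P and 15 of 21 KB1P and KB1PM tumours, and KB2P 38 lay above them. The log2 fold change was −1.71 in KB2P (SE 0.53, edgeR adjusted p = 0.00943) and −1.72 in KB1P (SE 0.54, edgeR adjusted p = 0.0124). Without KP 90.01A, the KP tumour that resembled the sarcomatoid ones, it was −1.50 in both, with adjusted p of 0.0508 and 0.07. The KB2P value was −2.64 (adjusted p = 4.47e-05) with run 2459 alone and −1.22 (adjusted p = 0.116) with run 2749 alone, and its adjusted p was 0.0549 in a fit of only the groups compared.

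The transcript of Nrf2 itself, Nfe2l2, had 45.8, 89.5 and 187 CPM in KB2P adenocarcinomas (lowest, median, highest), against 141, 142, 158, 171 and 244 CPM in KP adenocarcinomas. Of the 23 KB2P tumours 22 lay below all KP tumours (log2 fold change −0.84, SE 0.22, edgeR adjusted p = 0.00248). In KB1P tumours the change was −0.50 (SE 0.23, edgeR adjusted p = 0.0985) and did not pass. Keap1, its inhibitor, had 39.6, 68.4 and 140 CPM in KB2P, 43.4, 72.1 and 128 CPM in KB1P and 52.1, 69.3 and 100 CPM in KB1PM tumours, against 20.0, 40.1, 43.4, 44.6 and 73.4 CPM in KP tumours. The groups overlapped, since KP tumour 89.01A lay above the medians of the 3 KB groups. The log2 fold change was 0.75 in KB2P (SE 0.22, edgeR adjusted p = 0.00555) and 0.71 in KB1P (SE 0.22, edgeR adjusted p = 0.0115). Without KP 131.03A, the lowest in Keap1, the KB1P value was 0.52 (adjusted p = 0.0805).

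Gclm had 39.8, 90.1 and 185 CPM in KB2P (lowest, median, highest), 48.8, 92.1 and 132 CPM in KB1P and 47.3, 64.5 and 101 CPM in KB1PM tumours, against 68.5 to 262 CPM in KP tumours. The log2 fold change was −0.59 in KB2P (SE 0.24, edgeR adjusted p = 0.0444) and −0.87 in KB1P (SE 0.24, edgeR adjusted p = 0.00385). Without KP 40, the highest tumour, they were −0.29 (adjusted p = 0.404) and −0.55 (adjusted p = 0.104). The KB2P call held in only 5 of 12 alternative analyses, with adjusted p of 0.0159 to 0.404 over them, while the KB1P call held in 9 of 10. Gpx2, Gclc, Hmox1, Nqo1 and Txnrd1 did not pass in either comparison, with edgeR adjusted p of 0.112 or more.

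**Figure D4:**
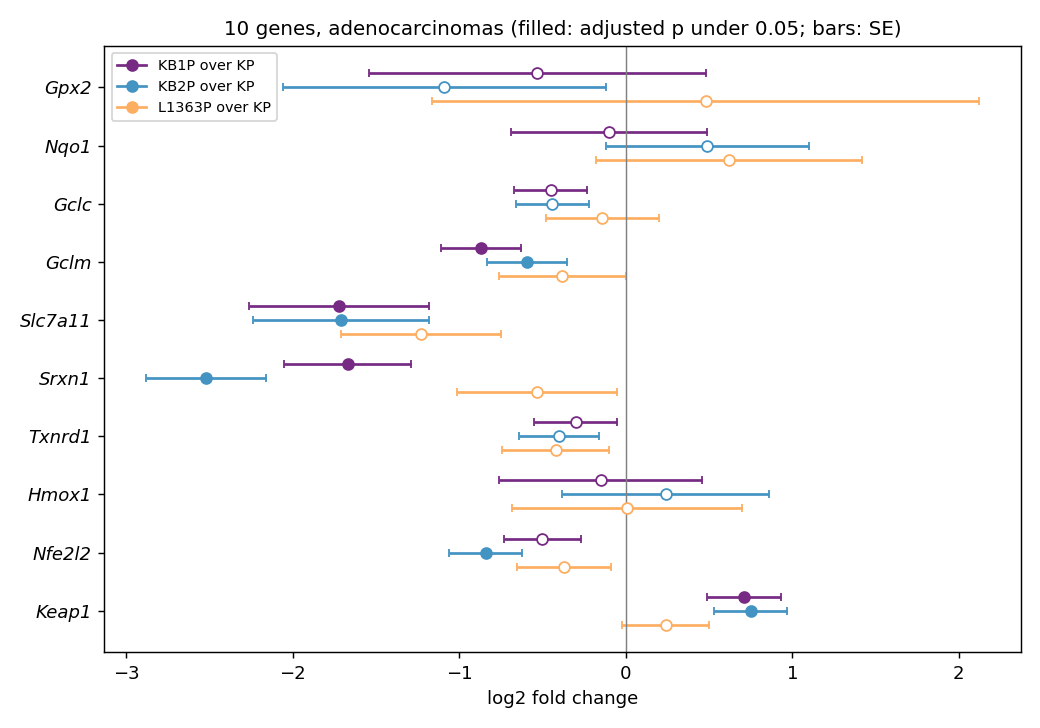
Log2 fold changes with SE of the 10 genes in KB1P, KB2P and L1363P adenocarcinomas, each over the 5 KP adenocarcinomas. Filled points passed an edgeR adjusted p of 0.05. Srxn1 lies lowest among the called genes in KB2P, at −2.52, and no gene is filled for L1363P.

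Markers of macrophages and of mesenchymal cells moved with this contrast too. Of 11 markers 9 fell in KB1P and 9 in KB2P adenocarcinomas against KP adenocarcinomas. The summed level had a median of 690 CPM in KB2P, 748 CPM in KB1P and 708 CPM in KB1PM tumours, against 1897 CPM in KP tumours, where 90.01A reached 10290 CPM. Of 12 mesenchymal and fibroblast markers 6 fell in KB1P and 5 in KB2P, and their summed level had a median of 2583 CPM in KB2P tumours against 8658 CPM in KP tumours. The lowest KP tumour, at 4466 CPM, lay above all KB2P tumours but KB2P 10. Of 6 endothelial markers 6 fell in KB1P and 5 in KB2P. The part of these cell types in the lower Srxn1 was not tested. Srxn1 remained called in all 12 alternative analyses of KB2P against KP, among them the one without KP 90.01A, and so did Nfe2l2 and Keap1.

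Most of the other pathway genes called between the KB models and KP were lower in the KB models. Over all genes tested, 17.2% passed as lower and 18.1% as higher in KB2P, and 15% as lower and 12.3% as higher in KB1P. The list counts in this paragraph are to be read against these shares and do not by themselves set the lists apart. Akr1c13 (−1.62, SE 0.45) and the glucuronosyl transferase Ugt1a7c (−2.39, SE 0.38) fell in KB2P and in KB1P (−2.06, SE 0.45, and −1.80, SE 0.40). Gpx3 fell in KB2P (−1.37, SE 0.43) and KB1P (−1.14, SE 0.44), as did Gpx8 (−1.45, SE 0.48, and −1.51, SE 0.48). Of the further Nrf2 targets 5 of 9 fell in KB2P and 2 of 9 in KB1P, among them Osgin1, a stress-induced growth inhibitor (−1.08, SE 0.33, and −1.04, SE 0.34). Cul3, the ligase scaffold that works with Keap1, fell in both (−0.40, SE 0.14, and −0.46, SE 0.14), and Bach1 in KB2P (−1.01, SE 0.20). The conjugation and quinone list had 4 of 19 genes lower in KB2P and 5 of 19 in KB1P. In the other direction, 5 genes of these lists rose in KB2P and none in KB1P: Asns, an Atf4 target that makes asparagine (1.42, SE 0.45), Eefsec (0.89, SE 0.27) and Sephs2 (0.60, SE 0.23), which serve selenoprotein synthesis, the carbonyl reductase Cbr1 (0.65, SE 0.25), and Dpp3, which binds Keap1 (0.62, SE 0.21). All of these had an edgeR adjusted p of 0.0455 or less. Ftl1 (−4.74, SE 0.26, in KB2P and −2.38, SE 0.28, in KB1P) and Prdx1 (−1.24, SE 0.16, and −1.43, SE 0.16) had the smallest adjusted p-values of the lists, at most 1.08e-08 in edgeR, but both have near-identical copies in the genome between which the authors' counting could split reads, so their values are uncertain.

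Between L1363P and KP adenocarcinomas, all of the same run, no difference in the 10 genes passed. Of all genes 0.211% passed (34 by edgeR, 475 by DESeq2 and 21 by limma). Srxn1, at 15.3, 30.6 and 56.5 CPM in L1363P tumours, overlapped the 22.02 to 86.3 CPM of KP tumours (log2 fold change −0.53, SE 0.48, edgeR adjusted p = 0.62). The lowest adjusted p among the 10 was that of Slc7a11 (−1.23, SE 0.48, edgeR adjusted p = 0.233). With 3 tumours against 5, these intervals are wide: the SE was 0.69 for Hmox1 and 1.64 for Gpx2.

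Against the KB models, L1363P adenocarcinomas had higher Srxn1 than KB2P tumours (log2 fold change 1.99, SE 0.44, edgeR adjusted p = 0.0013), the only one of the 10 genes called where 9.10% of genes passed (4.41% as higher). Without L1363P 52, the highest of the 3, it was 1.43 (adjusted p = 0.129). Against KB1P tumours 5.00% of genes passed and none of the 10, with Srxn1 at 1.15 (SE 0.48, edgeR adjusted p = 0.174). Run and genotype coincide here as well.

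KB1P adenocarcinomas had higher Srxn1 than KB2P adenocarcinomas (0.85, SE 0.26, edgeR adjusted p = 0.0203), and no other of the 10 genes passed, where 13.2% of genes passed (5.38% as higher). The KB1P, KB1PM and KB2P libraries share no run, so genotype or title cannot be told apart from run in these comparisons. The Srxn1 call was lost against KB2P tumours of run 2459 alone (0.64, adjusted p = 0.236) and with limma on the deposited log2 values (0.68, adjusted p = 0.0823). Of the 21 KB1P and KB1PM tumours 6 lay above all KB2P tumours. Between KB1PM and KB1P titles none of the 10 genes passed, with 0.887% of all genes called and a lowest member value for Gclm (−0.43, SE 0.22, edgeR adjusted p = 0.438). Between KB2P runs 2749 and 2459, 0.675% of genes passed and none of the 10. The largest changes were 1.43 for Slc7a11 (SE 0.70, edgeR adjusted p = 0.269) and −1.0 for Nqo1 (SE 0.51, edgeR adjusted p = 0.285).

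Per kilobase of exon, the order of the 10 genes in sarcomatoid tumours by median CPM per kb was Hmox1 (152), Txnrd1 (57.3), Srxn1 (50.8), Nfe2l2 (44.0), Gclc (15.4), Gclm (13.6), Nqo1 (11.7), Keap1 (8.34), Slc7a11 (2.13) and Gpx2 (0). Exon length here merges all annotated transcripts, which lowers the value of genes with long alternative exons such as Slc7a11. The ranges over tumours overlapped among the first 4 genes, Hmox1 included, and among Gclc, Gclm, Nqo1 and Keap1.

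Beyond group and run, the genes varied together only in part. After centring log2 CPM on each group and run over the 73 tumours, 45 pairs of genes were correlated, with permutation within group and run. By both measures 3 pairs passed after adjustment over the 45, all positive. Srxn1 and Slc7a11 had Pearson r = 0.60 and Spearman rho = 0.67 (permutation, adjusted p = 0.00045 for both, the smallest the permutations can give), and r = 0.59 without the 2 tumours farthest out in Srxn1. Gpx2 and Nfe2l2 had r = 0.42 and rho = 0.37 (permutation, adjusted p = 0.0144 and 0.0492), and Hmox1 and Slc7a11 r = 0.37 and rho = 0.41 (permutation, adjusted p = 0.047 and 0.0394). By Pearson's r alone 6 pairs passed, and the other three included Nqo1 with Slc7a11, the negative one (−0.33). Within the 23 KB2P tumours, centred on run, the 3 pairs had r = 0.55 (permutation, adjusted p = 0.163), 0.53 (adjusted p = 0.326) and 0.37 (adjusted p = 0.441) in the same order, about as large as over all tumours, and no pair passed.

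**Figure D5:**
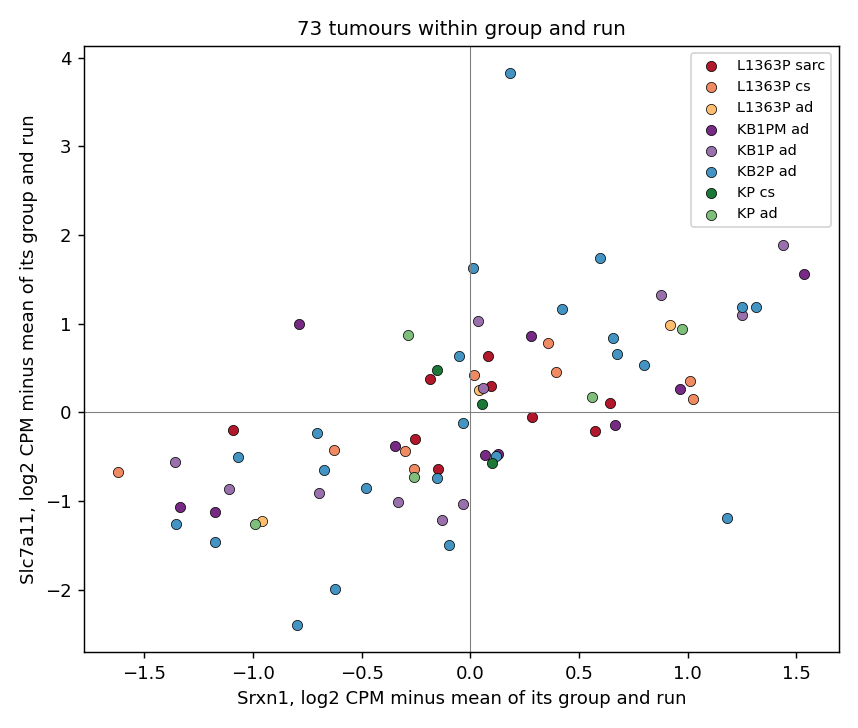
Srxn1 against Slc7a11 in the 73 tumours, as log2 CPM centred on each group and run, so that 0 is the mean of a tumour's own group and run. The points rise together (Pearson r = 0.60).

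The genes whose pattern was most like each member were taken by Pearson's r of log2 CPM, as a description. Over the 29 tumours of run 5625, Gpx2 was most like Ceacam20 (0.921), Mansc1 (0.915), Dcaf4 (0.912), Scd3 (0.905) and Grhl3 (0.900), of which Grhl3 is an epithelial transcription factor. These tumours share the sarcomatoid zero, and with it the range of epithelial content. After centring on group and run over the 73 tumours, Gpx2 was most like Rab15 (0.755), a small GTPase gene that lies 2.4 kb away on the same strand, and Cldn1 (0.681), a tight junction gene.

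Neighbours in the genome recurred in this list. Of the 20 closest genes of the 10 members, 8 lay on the same chromosome and 6 within 1 megabase, for 5 members. Keap1 was most like Raver1 (0.750, 138 kb away) and Dnm2 (0.740, 186 kb away), Txnrd1 like Chst11 (0.636, 87.8 kb away), and Nfe2l2 like Hnrnpa3 (0.584, 6.11 kb away) after Lnx1 (0.594). Elovl5 (0.601, 123 kb away) was among the closest genes of Gclc. DNA copy number of these tumours was not analysed here. Hmox1 was most like Clec4d (0.760), a receptor gene of myeloid cells, Srxn1 like Reep5 (0.652) and Card19 (0.637), and Slc7a11 like Slc7a8 (0.606) and Srxn1 (0.601). Nqo1 was most like Mogat1 (0.573) and Sphk1 (0.560), and Gclm like Prepl (0.544) and Kndc1 (0.533). These values carry the depth and cell content that the tumours share, and no test.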

How the data were processed

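Stranded libraries of polyadenylated RNA from 73 tumours were sequenced, per the labels' protocols. The authors deposited raw read counts per gene symbol and, as a second table, log2 normalized counts. Per the submitters' processing notes, the tools were cutadapt 2.10, STAR 2.7.3a, featureCounts 2.0.0 and DESeq, with build mm10. No source used here states a strand setting for the counting. Spreadsheet dates had replaced 24 symbols (0.1688% of counts). Counts were analysed with edgeR 4.0.16 (R 4.3.3): filterByExpr at a minimum count of 10, TMM scaling, quasi-likelihood F test, and Benjamini-Hochberg adjustment at 0.05 over all genes tested. L1363P and KP tumours were compared in a fit of the 29 libraries of run 5625 (5 groups), and all other comparisons came from a fit of the 73 libraries (8 groups). The epithelial slope used the 9 L1363P carcinosarcomas. Run numbers come from the start of the library descriptions, and that they name sequencing runs is a reading of the labels. SE is the log2 fold change divided by the square root of F. Correlations used 100000 permutations (prior count 2). Alternatives were RLE scaling, DESeq2 1.42.0, limma 3.58.1 on the deposited log2 values, no count filter, fits of only the groups compared, leave-one-out, and subsets of tumours or runs. All 10 members were named in every comparison, and pathway genes as up to 4 per list and direction with the largest called changes (mean log2 CPM of at least 1), plus 5 other glutathione peroxidases. The members, lists and tests were chosen with earlier results of these data known. Some genes that the naming rule picked are not reported here.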

Additional observations from a re-analysis of the deposited data

Results flagged for a closer look

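Single tumours stood far from the rest of their group, by the gap to the nearest tumour relative to the group's range, in 8 of 39 groups tested by gene. Not every group was tested for every gene. A rate of about 1 in 20 would hold only for independent values with a normal spread. The rule was applied to CPM, and all 8 tumours were the highest of their group, so the count is a description. Gpx2 did so in KP adenocarcinoma 40 (111 CPM, 79.0% of the group's sum), in L1363P carcinosarcoma 54.1 (19.1 CPM, 61.3%) and in KB1PM 9 (104 CPM, 47.5%). KP 40 was also highest in its group for Nfe2l2, at 244 CPM. KB1PM 2 stood apart in both Nfe2l2 (337 CPM) and Hmox1 (232 CPM). The sarcomatoid tumour L1363P 43 had 96.4 CPM of Nqo1, 41.7% of its group's sum. L1363P carcinosarcoma 6 had 205 CPM of Gclm.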

How the results depend on the processing

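Of 148 member fold changes, 18 passed, and 6 of these did so in every alternative. Over all genes tested, the share that passed ran from 0% to 35.3% in the same 15 comparisons. The 18 calls are to be read against these shares and do not by themselves set the members apart. Over 1394 alternative values 0 changed direction past a threshold, 28 lost and 6 gained a call. Only the 18 called fold changes could lose a call, and most of the 1394 values belong to fold changes that had none. The 28 losses are therefore not to be read as a share of 1394. In sarcomatoid against L1363P adenocarcinomas, 2 members passed in place of 4 with no count filter, 3 with only the groups compared, and 1 to 4 when single tumours were left out. In sarcomatoid against L1363P carcinosarcomas, 2 passed in place of 1 with DESeq2, with only the groups compared, without the 3 tumours that stood apart, and with carcinosarcomas at least 75% epithelial. The single member called between KB1P and KB2P dropped to 0 with limma and with KB2P run 2459 only, and between L1363P and KB2P the count was 0 to 1 under leave-one-out. KB2P against KP gave 3 in place of 5 with only the groups compared, 4 with DESeq2, limma and run 2749 alone, and 4 to 5 under leave-one-out. KB1P against KP gave 3 to 4. The epithelial slope gave 1 in place of 2 with no filter, 3 with DESeq2, and 0 without tumours 17 and 4, chosen after seeing the data. Of 3 correlated pairs 0 passed in the 23 KB2P tumours alone, at similar r. The promoter core was in 1 in place of 4 members on the given strand, against 6.38% of windows. KB1PM and KB1P titles share 8 numbers, whose correlations of −0.16 to 0.171 do not pair the tumours; with a replicate block 0 members and 1 gene passed, against 2 genes in the fit of only these groups and 164 in that of all libraries. The causes were not tested.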
